A study of Rattus norvegicus with 6 samples.

Results

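The creatine genes examined here were Slc6a8, Ckm, Ckb, Ckmt2, Gatm and Gamt, 6 genes that cover creatine uptake, the creatine kinase reaction and creatine synthesis. They were taken by gene symbol, and where several transcript clusters carried a symbol, 1 was selected on its mean log2 signal over the 6 arrays, the highest being used. Each of 5 symbols had a single cluster, so brightness decided nothing, and Ckmt2 was attached to no named cluster and was not analysed here. The 5 measured genes are a subset of the 14506 genes compared. The set was chosen with earlier results of these data known, among them the difference of Slc6a8 between the leucine and casein diets, which is therefore given as a description.

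RNA came from gastrocnemius, a mostly fast-twitch calf muscle, of male Sprague-Dawley rats with diet-induced obesity. It was hybridised to Affymetrix Rat Gene 1.0 ST arrays, whose probes lie along the whole transcript. The diets were high in fat and sucrose, held 4.6 kcal per gram with 10% of the energy as protein, and were eaten freely for 8 weeks by rats aged 12 weeks at the start and 20 weeks at sampling. The protein was casein with free leucine (7.1% and 2.9% of energy) in the leucine diet, complete dairy protein from skim milk powder in the dairy diet, and casein alone in the control diet. There were 2 arrays per diet, 6 in all, while the design text speaks of 4 rats per diet. The labels do not state that arrays sharing a diet are from separate animals, so p-values measure only the spread between these samples, which may be technical. The storage and extraction texts name liver, and the tissue labels name muscle.

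Muscle holds most of the body's creatine but makes little of it. In the textbook route Gatm joins the amidino group of arginine to glycine, chiefly in kidney, Gamt methylates the product, chiefly in liver, and the blood carries creatine to muscle, where the sodium- and chloride-coupled transporter Slc6a8 takes it up. Creatine kinases then move phosphate between ATP and creatine. Ckm is the cytosolic muscle isozyme, part of it bound at the M-band of the sarcomere, Ckb is the cytosolic isozyme named for brain and found in many non-muscle cells, and Ckmt2 is the sarcomeric isozyme between the mitochondrial membranes.

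The sequences just upstream of 3 of these genes are shown because Slc6a8 differed most from casein and because Ckm and Ckb are the cytosolic kinases whose values separated leucine from casein arrays. All are RefSeq sequence of build GRCr8, read 5′ to 3′ on the strand of the gene. They are chrX:156535767-156536016 on the plus strand for Slc6a8, chr1:88189211-88189381 on the plus strand for Ckm (171 bases that end where the annotated gene begins) and chr6:136553465-136553714 on the minus strand for Ckb. Capitals mark E-boxes (CANNTG, the letters bound by myogenic factors among others), GC boxes (GGGCGG) in Slc6a8, and in Ckb a match to the MEF2 consensus that contains the TATA letters TATAAA.
Slc6a8: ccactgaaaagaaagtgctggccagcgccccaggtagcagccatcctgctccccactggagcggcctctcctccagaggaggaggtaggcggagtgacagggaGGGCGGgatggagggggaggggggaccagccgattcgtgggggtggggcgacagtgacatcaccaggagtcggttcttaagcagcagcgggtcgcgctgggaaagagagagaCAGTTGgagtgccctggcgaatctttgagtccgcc
Ckm: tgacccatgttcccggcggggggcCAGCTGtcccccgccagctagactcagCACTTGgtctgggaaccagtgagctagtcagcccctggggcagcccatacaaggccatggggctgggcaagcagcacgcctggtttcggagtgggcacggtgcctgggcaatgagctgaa
Ckb: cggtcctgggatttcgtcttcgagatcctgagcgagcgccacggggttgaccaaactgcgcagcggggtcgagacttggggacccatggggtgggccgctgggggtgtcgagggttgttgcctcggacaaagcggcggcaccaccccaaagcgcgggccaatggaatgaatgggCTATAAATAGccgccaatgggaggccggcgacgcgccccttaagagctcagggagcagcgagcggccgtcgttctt

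Over the 250 bases before the start, with both strands searched, Slc6a8 held 1 E-box, Ckm 3 and Ckb 0. The third E-box of Ckm, a CAGCTG that begins 75 bases before the start, lies in the 79 bases not shown, which are inside the annotated gene. At least 1 E-box stood in 65.5% of the 33469 RefSeq promoters. The narrower form CAGCTG, which CANNTG includes, occurred at 2 places in Ckm and in 12.0% of all promoters. A GC box stood in the Slc6a8 window and in 30.5% of all promoters. The MEF2 consensus matched the Ckb window and 2.96% of all promoters, and TATAAA lay inside that match and in 12.9% of all promoters. The nuclear receptor letters AAGGTCA (3.99% of all promoters) and the amino acid response letters TGATGNAA (3.40%) were in none of the 3 windows. These are matches of letters and not binding sites.

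Slc6a8, the creatine transporter, was the creatine gene that differed most from casein under both other protein sources. Its log2 signal was 7.98 and 7.93 on the leucine arrays, 7.74 and 7.79 on the dairy arrays, and 7.31 and 7.31 on the casein arrays. Every leucine array was above every dairy array, and every dairy array was above every casein array. Means were 7.96 ± 0.04 for leucine, 7.76 ± 0.04 for dairy and 7.31 ± 0.01 for casein (SD, n = 2 each). Among all genes, 284 (1.96%) had their arrays in that complete order, and 169 (1.17%) had them in the opposite order.

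**Figure D1:**
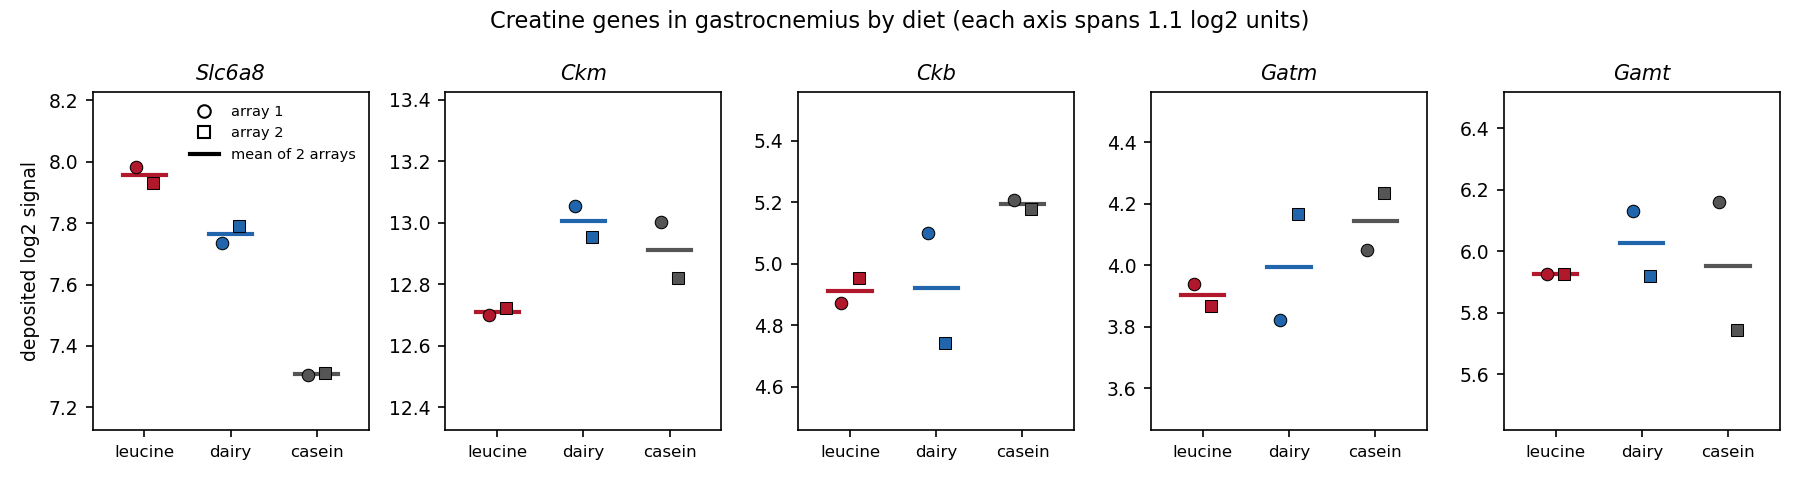
Deposited log2 signal of the 5 measured creatine genes on each array, with leucine, dairy and casein from left to right, circles for array 1, squares for array 2 and a bar at the mean of each diet. Slc6a8 stands near 7.96 with leucine, 7.76 with dairy and 7.31 with casein with no overlap between diets, while the arrays of Gamt overlap.

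With leucine, Slc6a8 was 1.57-fold above casein, a log2 fold change of 0.65 ± 0.06 (SE of the model, 95% interval 0.49 to 0.81). It ranked 7 of 14506 by unadjusted p, and limma's adjusted p over all genes was 0.353, so it did not pass the threshold of 0.05. With dairy it was 1.37-fold above casein, at 0.45 ± 0.06 (0.29 to 0.62), ranked 12, with a limma adjusted p of 0.833. Between leucine and dairy the difference was 0.19 ± 0.06 (0.03 to 0.35), or 1.14-fold, with an unadjusted p of 0.0285 and an adjusted p of 0.785 in the same limma model. The comparisons with casein share their control arrays and are not independent of each other. In a bulk sample, more transcript per fibre and a larger share of the cells that carry it cannot be told apart.

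Casein array 2 stood apart from the other arrays. Its mean correlation with the rest was 0.974, against 0.985 to 0.988 for the others, and its slow-fibre markers were far lower, with Myh7, the slow myosin heavy chain, at 6.07 there and between 10.7 and 11.4 elsewhere. The Slc6a8 signal was nearly the same on both casein arrays. Without casein array 2 its log2 fold change was 0.65 for leucine and 0.46 for dairy against casein, and without casein array 1 it was 0.64 and 0.45.

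**Figure D2:**
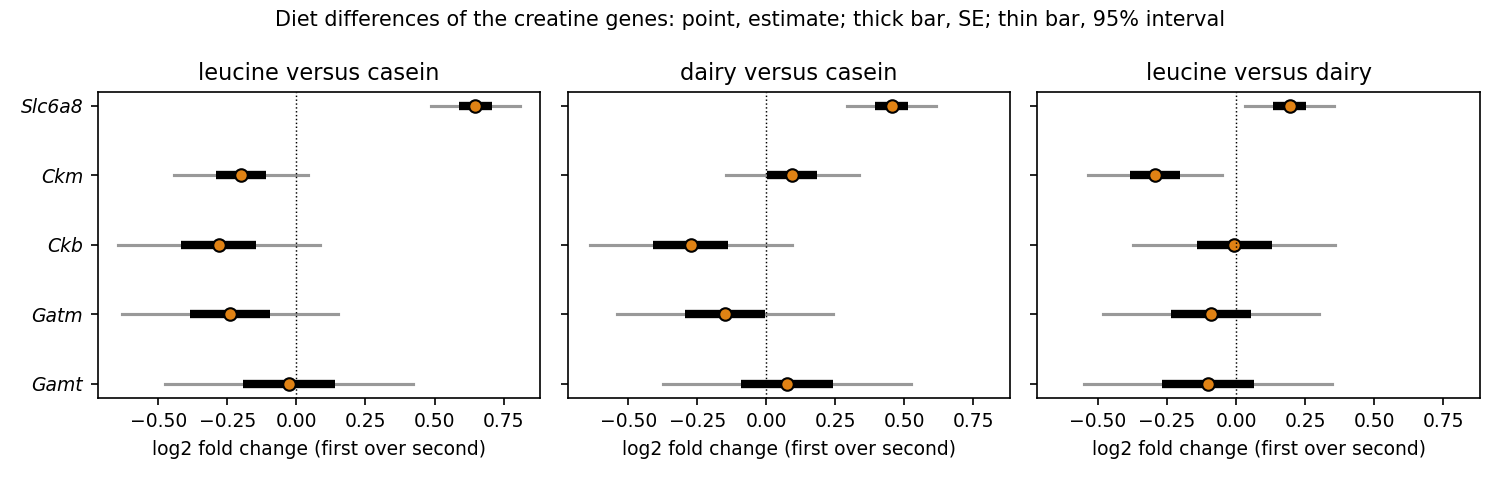
Log2 fold changes of the 5 measured creatine genes in the 3 diet comparisons, first diet over second; points are estimates, thick bars the SE and thin bars the 95% interval of the limma model. The Slc6a8 intervals lie above 0 in all 3 panels (0.49 to 0.81 for leucine against casein), the Ckm interval lies below 0 for leucine against dairy, and the intervals of Ckb, Gatm and Gamt include 0 throughout.

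Ckm, the muscle creatine kinase, was lowest on the leucine arrays. Its log2 signal was 12.70 and 12.72 with leucine, 13.06 and 12.95 with dairy, and 13.00 and 12.82 with casein. The leucine arrays lay below all others, and the dairy and casein arrays overlapped. Against dairy the leucine difference was −0.29 ± 0.09 (95% interval −0.54 to −0.05), or 1.23-fold lower, with an unadjusted p of 0.0271 and a limma adjusted p of 0.781. Against casein it was −0.20 ± 0.09 (−0.44 to 0.04), and −0.29 without casein array 2 or −0.11 without casein array 1. Dairy against casein gave 0.09 ± 0.09 (−0.15 to 0.34), and 0.0026 without casein array 2 or 0.19 without casein array 1. Ckm was among the brightest genes, between the 4th and the 6th from the top on every array, where quantile normalization gives nearly the same value to each array, and the leucine differences then were −0.04 against dairy and −0.03 against casein.

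Fast-fibre transcripts lay on the same side as Ckm. Of 14 measured markers 13 were lower with leucine than with dairy, with a median log2 fold change of −0.24 and 4 at an unadjusted p under 0.05, while the median gene stood at 0 and 5.70% of all genes had such a p. Myoz1, a Z-disc protein of fast fibres, averaged 11.2 with leucine and 11.7 with dairy, a log2 fold change of −0.43 ± 0.06. Myl11, the fast regulatory light chain, stood at −0.32 ± 0.11, Pygm, the muscle glycogen phosphorylase, at −0.22 ± 0.08 and Myl1, a fast alkali light chain, at −0.17 ± 0.06. Against casein Myoz1 stood at −0.35 ± 0.06 with leucine and 12 of 14 were lower, with a median of −0.11 (−0.20 without casein array 2), and 13 of 14 were higher with dairy, with a median of 0.10 (0.03 without it). The summed fast-fibre signal, on the log2 scale, was 16.1 on both leucine arrays, 16.4 and 16.3 on the dairy arrays and 16.3 and 16.1 on the casein arrays. The part of the fibre makeup in the Ckm values was not tested.

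Ckb, the cytosolic isozyme of other tissues, was dimmer and highest with casein. Its log2 signal was 4.87 and 4.95 on the leucine arrays, 5.10 and 4.74 on the dairy arrays, and 5.21 and 5.18 on the casein arrays. Both leucine arrays and both dairy arrays lay below the casein arrays, and the dairy arrays spanned the leucine ones. The log2 fold change was −0.28 ± 0.14 (95% interval −0.65 to 0.09) for leucine and −0.27 ± 0.14 (−0.64 to 0.09) for dairy against casein, with limma adjusted p of 0.619 and 0.833. The dairy value was −0.09 without dairy array 2 and −0.45 without dairy array 1. Leucine and dairy differed by −0.01 ± 0.14 (−0.37 to 0.36), and that sign turned under other scalings of the arrays.

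Ckb is also made by cells other than muscle fibres, and the markers of several such cells were lower on the leucine arrays. Of 13 fibroblast and matrix markers all 13 were lower with leucine than with casein, with a median of −0.72, and 12 of 13 were higher with dairy than with casein, with a median of 0.30. Of 14 macrophage markers all 14 were lower with leucine than with casein, with a median of −0.57, or −0.13 without casein array 2. Among smooth muscle markers 6 of 9 were lower with leucine, with a median of −0.08, and among Schwann cell and nerve markers 7 of 10, with a median of −0.19. The dairy values of these lists against casein were 0.10 for smooth muscle, −0.07 for Schwann cells and 0.02 for macrophages, where Ckb stood at −0.27. Leaving out casein array 2 made them 0.06, 0.06 and 0.36, and the leucine medians −0.14 for smooth muscle and −0.09 for Schwann cells. Between leucine and dairy Ckb stood at −0.01. In that comparison all 13 matrix markers and all 14 macrophage markers were lower with leucine, with medians of −1.31 and −0.67. So were 7 of 10 Schwann cell markers, with a median of −0.16. Of 9 smooth muscle markers 5 were lower and 3 higher with leucine than with dairy, with a median of −0.03. The summed matrix signal, on the log2 scale, was 10.4 to 10.5 with leucine, 11.7 to 12.1 with dairy and 11.6 on both casein arrays. Their part in the Ckb values was not tested.

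Single genes of these lists differed as well, some of them by more than any creatine gene in the same comparison. For leucine against casein the collagen chains Col1a1 and Col1a2 stood at −1.94 ± 0.27 and −1.90 ± 0.36, Col5a1 at −0.35 ± 0.06 and the gelatinase Mmp2 at −0.93 ± 0.14. For leucine against dairy Col1a1 stood at −2.001 ± 0.27, Col3a1 at −1.44 ± 0.17, Mmp2 at −1.22 ± 0.14 and Col5a1 at −0.52 ± 0.06, and Col3a1 was at 0.74 ± 0.17 for dairy against casein. In macrophage genes, leucine against casein gave −0.56 ± 0.07 for the signalling adaptor Tyrobp, −1.08 ± 0.20 for the complement chain C1qb, −0.58 ± 0.16 for the receptor Csf1r and −1.15 ± 0.34 for the invariant chain Cd74, or −0.66 when casein array 2 was left out. Against dairy the leucine values were −0.56 ± 0.07 for Tyrobp, −1.12 ± 0.20 for C1qb, −0.88 ± 0.16 for Csf1r and −0.55 ± 0.20 for C1qa. Tyrobp lay below the median gene in brightness and was tied at 3.51 on both dairy and both casein arrays. Its values against casein and against dairy are therefore the same difference, with an SE that the ties make small. The myelin gene Pmp22 stood at −1.30 ± 0.18 against casein and −1.25 ± 0.18 against dairy. The list of 10 Schwann cell and nerve markers that holds Pmp22 differed less. Against casein 7 of them were lower and 3 higher with leucine, with a median of −0.19, or −0.09 without casein array 2. Only 3 of the 10 lay above the median gene in brightness. For leucine against casein, Col5a1, Tyrobp and Csf1r differed by less than Slc6a8, which stood at 0.65.

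The other mitochondrial creatine kinase on the array, Ckmt1, which is known from tissues other than striated muscle, was among the dim genes. It stood at 3.21 on both leucine arrays, at 2.94 and 3.21 on the dairy arrays and at 3.55 and 3.21 on the casein arrays. The same value recurred on 4 of the 6 arrays, a tie of the kind found in 60.8% of all genes in the deposited table, so its differences rest on 1 dairy and 1 casein array.

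Gatm and Gamt, the enzymes of creatine synthesis, had 95% intervals that included 0 in all 3 comparisons. Gatm stood at 3.94 and 3.87 with leucine, at 3.82 and 4.17 with dairy and at 4.05 and 4.24 with casein. Both leucine arrays were below both casein arrays, and the dairy arrays spanned all but one of the others. Its log2 fold change for leucine against casein was −0.24 ± 0.15 (95% interval −0.63 to 0.15), or −0.15 when casein array 2 was left out and −0.33 when casein array 1 was. For dairy against casein it was −0.15 ± 0.15 (−0.54 to 0.24), and −0.32 without dairy array 2 or 0.023 without dairy array 1. For leucine against dairy it was −0.09 ± 0.15, and 0.082 without dairy array 2 or −0.26 without dairy array 1. Gatm lay below the median gene in brightness, and the other 4 creatine genes lay above it.

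Gamt stood at 5.93 on both leucine arrays, with identical deposited values, at 6.13 and 5.92 with dairy, and at 6.16 and 5.75 with casein. The casein arrays were the highest and the lowest of the 6. The log2 fold change was −0.03 ± 0.17 (95% interval −0.47 to 0.42) for leucine and 0.07 ± 0.17 (−0.37 to 0.52) for dairy against casein. Without casein array 2 these became −0.23 and −0.13, and without casein array 1 they became 0.18 and 0.28. The leucine and dairy arrays differed by −0.10 ± 0.17 (−0.55 to 0.35), and by 0.0046 without dairy array 1 or −0.21 without dairy array 2.

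Because both enzymes are abundant in liver or kidney and the protocols name liver, hepatocyte markers were read beside them. All 20 markers were lower with leucine than with casein, with a median of −1.23, or −0.36 without casein array 2, and all 20 were lower with dairy than with casein, with a median of −1.84, or −0.76 without it. Their summed signal, on the log2 scale, was 7.65 and 10.7 on the leucine arrays, 9.14 and 7.82 on the dairy arrays, and 10.1 and 12.3 on the casein arrays. Albumin, Alb, ran from 4.81 on leucine array 1 to 11.7 on casein array 2. On casein array 2, where these markers were highest, Gatm had its highest value and Gamt its lowest. The part of liver-type RNA in either gene was not tested.

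**Figure D3:**
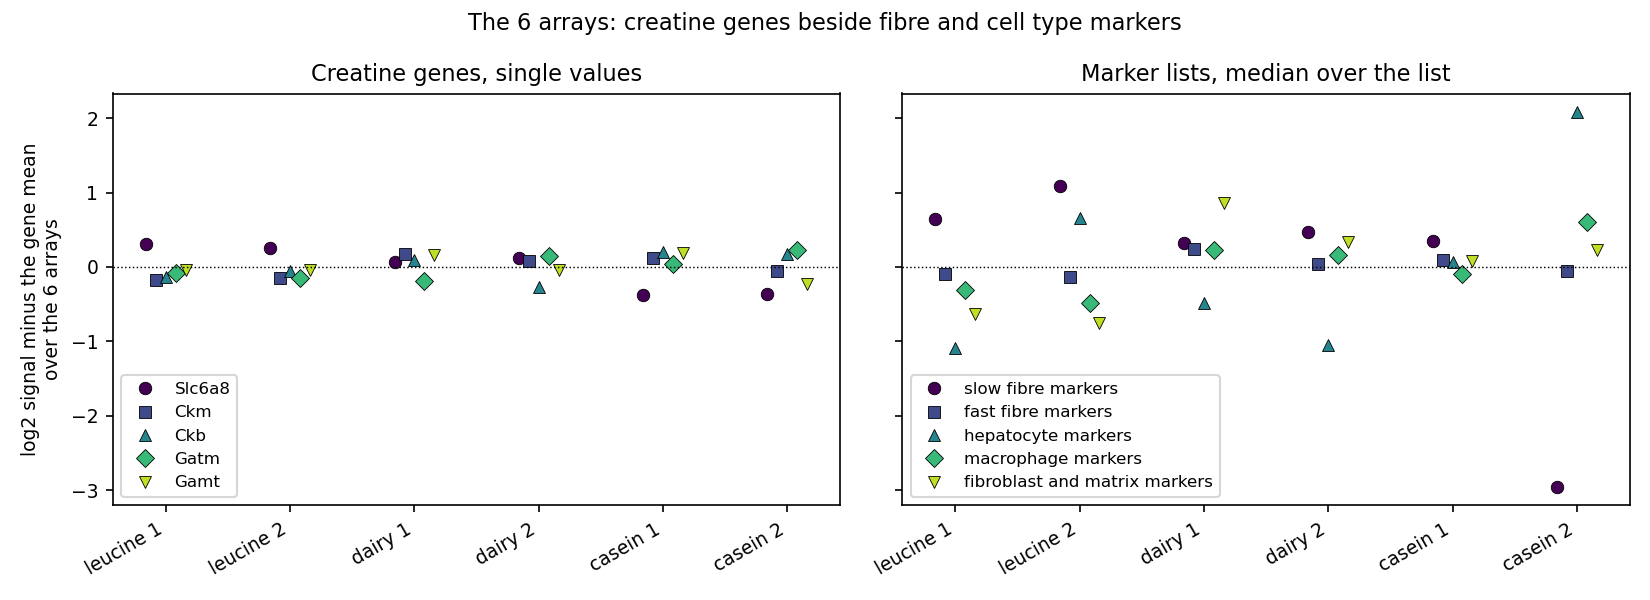
Left, log2 signal of each creatine gene relative to its mean over the 6 arrays; right, the median of the same quantity over each marker list, with the arrays of leucine, dairy and casein from left to right. The creatine genes stay within 0.4 of their means, while on casein array 2 the slow-fibre median is −2.95 and the hepatocyte median 2.08.

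Counted together, 4 of the 5 measured creatine genes had leucine arrays that did not overlap the casein arrays, 1 higher and 3 lower. Over all genes 31.5% did not overlap in that comparison, 15.9% higher and 15.6% lower. For dairy against casein it was 2 of 5 (1 higher, 1 lower), beside 23.2% of all genes (11.5% higher, 11.7% lower). For leucine against dairy it was again 2 of 5 (1 higher, 1 lower), beside 28.3% (13.4% higher, 14.9% lower). At an unadjusted p under 0.05 limma gave 1 of 5, 1 of 5 and 2 of 5 in the same order, beside 9.61%, 4.80% and 5.70% of all genes. Slc6a8 was the 1 gene in both comparisons with casein and, with Ckm, 1 of the 2 for leucine against dairy. It was also the 1 higher gene in each count of arrays without overlap. Because its difference was known when the set was chosen, these counts are only descriptions. After adjustment over all genes limma called 0 of 5 in each comparison, as it called 0 of 14506 genes (0% of all genes), while 1394, 696 and 827 genes had an unadjusted p under 0.05. The median log2 fold change of the 5 genes was −0.20 for leucine against casein, 0.07 for dairy against casein and −0.09 for leucine against dairy, beside a median gene at 0, 0.0028 and 0. For leucine against casein Slc6a8 stood above 0 and both kinases below it.

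A list of other creatine genes held Ckmt1, the carriers and channels of adenine nucleotides and phosphate in the mitochondrial membranes, 3 relatives of Slc6a8 and the organic cation family transporter Slc22a15. Of its 11 measured genes, 8 were higher with leucine than with casein, with a median log2 fold change of 0.11 (0.07 without casein array 2), and 5 were higher with dairy, with a median of −0.02 (0 without it). The mitochondrial phosphate carrier Slc25a3 averaged 10.0 with leucine and 9.59 with casein (0.43 ± 0.13, unadjusted p of 0.0241 in limma, 0.26 without casein array 2). Slc6a9, a glycine transporter and a relative of Slc6a8, averaged 3.52 with leucine, 3.76 with dairy and 3.78 with casein (−0.26 ± 0.09 against casein, −0.24 ± 0.09 against dairy). Slc6a9 lay below the median gene in brightness and was tied at 3.76 on both dairy arrays and casein array 1. Across 18 SLC6 relatives and osmolyte transporters, 3 of them above the median gene in brightness, 7 were higher with leucine than with casein and 2 with dairy, with medians of −0.03 and −0.04, both 0 without casein array 2. Slc6a8 was not among these 18.

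Genes that make, carry or use the arginine, glycine and methyl groups that creatine synthesis draws on numbered 21. With leucine 8 were higher and 13 lower than with casein, with a median of −0.14, or −0.00104 without casein array 2, and with dairy 4 were higher and 17 lower, with a median of −0.12, or −0.06 without it. Bhmt, a liver enzyme that remethylates homocysteine, averaged 2.82 with dairy and 4.95 with casein (−2.13 ± 0.77, or −1.16 without casein array 2). Mat1a, the liver form of methionine adenosyltransferase, averaged 2.58 with dairy and 3.89 with casein (−1.32 ± 0.45, or −0.71 without it). Gnmt, a glycine methyltransferase of liver, averaged 2.51 with leucine, 2.42 with dairy and 2.74 with casein (−0.23 ± 0.08 for leucine and −0.32 ± 0.08 for dairy against casein). Gnmt was among the dim genes and was tied at 2.42 on leucine array 1 and both dairy arrays. Slc25a15, the mitochondrial ornithine carrier, averaged 5.48 with leucine, 5.08 with dairy and 5.15 with casein (0.33 ± 0.12 for leucine against casein, 0.40 ± 0.12 against dairy). Arg2, the mitochondrial arginase, averaged 2.29 with leucine and 2.57 with casein (−0.28 ± 0.10, or −0.16 without casein array 2). Arg2 was dimmer than Gnmt. Bhmt and Mat1a, like the hepatocyte markers given above, were lower with dairy than with casein, and the part of liver-type RNA in them was not tested.

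In the adenylate and AMPK system, which senses and buffers the same energy charge as creatine kinase, 8 of 15 genes were higher with leucine than with casein and 9 of 15 with dairy, with medians of 0.02 and 0.13, or 0.00103 and 0.0074 without casein array 2. Prkaa1, a catalytic subunit of AMPK, averaged 6.88 with leucine, 6.58 with dairy and 6.41 with casein, at 0.47 ± 0.11 for leucine against casein and 0.30 ± 0.11 for leucine against dairy. Ak3, a mitochondrial adenylate kinase, stood at 0.33 ± 0.08 for leucine against casein. Of 6 M-band genes, which encode the structure where Ckm docks, 3 were higher with leucine than with casein, with a median of −0.02 (−0.06 without casein array 2), and 5 with dairy, with a median of 0.13 (0.04 without casein array 2). Of 20 muscle and metabolic transcription factors 16 were higher with leucine than with casein, with a median of 0.18, and 15 with dairy, with a median of 0.09. Ppara, a lipid-sensing receptor, stood at 1.03 ± 0.26 and Esrrg, an estrogen-related receptor, at 1.04 ± 0.34 for leucine against casein, or 0.80 and 0.71 without casein array 2. None of these genes passed limma's adjusted threshold.

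Slow-fibre markers were on the same side as Slc6a8 in all 3 comparisons. They were higher in 13 of 13 with leucine and 13 of 13 with dairy than with casein, with medians of 2.17 and 1.67, and in 12 of 13 with leucine than with dairy, with a median of 0.36. Without casein array 2 the medians against casein were 0.09 and −0.11, while the Slc6a8 differences were those given above. Pln, phospholamban of slow fibres, stood at 0.56 ± 0.18 for leucine against casein. The part of slow fibres in the Slc6a8 values was not tested. Endothelial markers were higher than with casein in 5 of 10 with leucine (median 0.09) and 6 of 10 with dairy (0.12), and Emcn, endomucin of vessel walls, stood at 0.25 ± 0.06 for leucine and 0.59 ± 0.06 for dairy against casein, and at −0.34 ± 0.06 for leucine against dairy. Adipocyte markers were higher in 3 of 11 with leucine (−0.53) and 5 of 11 with dairy (−0.08). Among them Lpl, a lipase that muscle fibres also make, stood at 1.17 ± 0.24 for leucine against casein and 0.85 ± 0.24 for leucine against dairy. Retn stood at −0.75 ± 0.22 for leucine and −0.61 ± 0.22 for dairy against casein, and Acvr1c at −0.21 ± 0.06 and −0.18 ± 0.06. Acvr1c was among the dim genes and was tied at 2.48 on leucine array 1 and both dairy arrays. Of 4 erythroid markers 1 was higher with leucine and 3 with dairy, with medians of −0.01 and 0.01. When casein array 2 was left out, the leucine and dairy medians were −0.05 and 0.24 for endothelial, −0.20 and 0.06 for adipocyte and −0.01 and −0.06 for erythroid markers.

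Genes most like Slc6a8 over the 6 arrays were sought among the 7239 others above the median brightness. The closest were Mettl14, a subunit of the complex that methylates adenosines in RNA, with a Pearson correlation of 0.992, Ppfibp2, a liprin, with 0.991, and Zbtb11, a zinc finger protein, with 0.990. Ppfibp2 stood at 5.993 and 6.001 with leucine, at 5.75 and 5.75 with dairy and at 5.36 and 5.37 with casein. Mettl14 stood at 5.97 and 5.94 with leucine, 5.83 and 5.84 with dairy and 5.36 and 5.44 with casein. All 3 genes had the same order of diets as Slc6a8, but they were picked by their correlation with it. Of the 7239 genes 41 had a correlation above 0.95 with Slc6a8. The same count was 93 for Gamt, 26 for Ckm and 5 for Gatm. These are descriptions over arrays that share their processing and their diets.

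**Figure D4:**
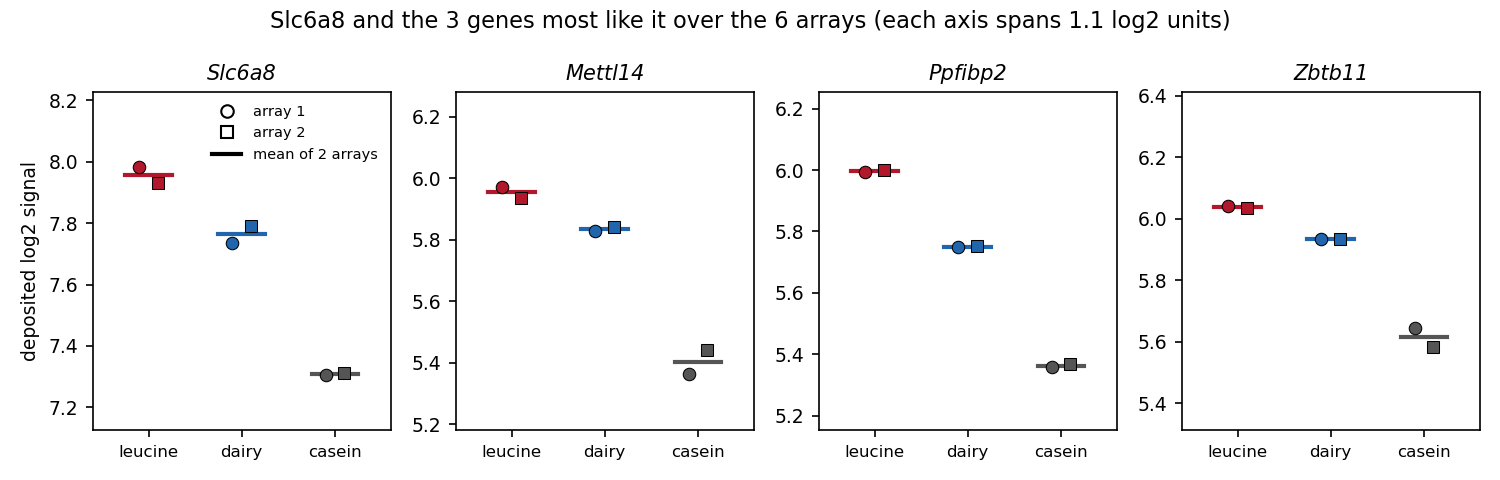
Deposited log2 signal of Slc6a8 and of Mettl14, Ppfibp2 and Zbtb11, the genes with the highest Pearson correlation with it over the 6 arrays; circles are array 1, squares array 2 and bars diet means, with leucine, dairy and casein from left to right. All 4 genes lie in that order, Slc6a8 with a difference of 0.19 between leucine and dairy and 0.45 between dairy and casein.

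For the other members the nearest genes were different ones. Those of Ckm were Gstm7 (0.982), Tmem132a (0.981) and Fdps, the farnesyl diphosphate synthase of cholesterol synthesis (0.980). Fdps stood at 6.67 and 6.74 with leucine, 7.65 and 7.16 with dairy, and 7.46 and 6.94 with casein. For Ckb they were Dhx33 (0.938), Sfxn1 (0.927) and RT1-DMa, a class II antigen-loading gene (0.925), and 0 genes were above 0.95. For Gatm they were Rab12 (0.972), Hmga1 (0.969) and Ddx27 (0.962). For Gamt they were Cpsf1 (0.999), Zbtb18 (0.999) and Dtd2 (0.997). Cpsf1 stood at 5.36 on both leucine arrays and on dairy array 2, and Gamt was tied on the leucine arrays only.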

How the data were processed

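Per the submitters' processing notes the authors used Affymetrix Expression Console to make the deposited log2 signals, 1 for each transcript cluster on each array. The sources used here do not give its version, nor how background, scaling and probe summary were handled. The values ran from 1.14 to 13.7, with medians per array from 3.46 to 3.56, and no value was 0. Scanner files were not analysed here. The number of arrays limits the precision.

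Of 29214 clusters 15310 had 1 gene in the platform annotation, 323 had several and 13581 had none. Symbols were updated through the gene identifier (15279), an accession (6) or kept (25), and the brightest cluster per symbol left 14506 genes with no filter on dim ones. One model with diet as its term was fitted to all 6 arrays with limma 3.58.1 in R 4.3.3 with empirical Bayes moderation, with Benjamini-Hochberg adjustment over all genes and a threshold of 0.05. On data simulated for leucine against casein over 14506 genes, with 200 changed genes in each of 10 runs, 46.7% of 2-fold and 76.4% of 4-fold changes were recovered. The simulated noise was independent, with no tied values and no array standing apart as casein array 2 did. Changes under 2-fold, where all the creatine genes lay, were not simulated. The recovery therefore does not carry over to these data. The members, 16 further gene lists (236 entries, 210 measured) and the tests were chosen with earlier results of these data known. Named were all members, Ckmt1, up to 4 genes per list and comparison with the smallest unadjusted p under 0.05 and arrays that did not overlap, the 3 genes most like each member and a few bright markers where casein array 2 stood apart. Alternatives were other scalings, a brightness filter, other fits, all clusters or the mean of a symbol's clusters, and leaving out each array.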

Additional observations from a re-analysis of the deposited data

How the results depend on the processing

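The 5 creatine genes in 3 comparisons were recomputed under 15 alternatives, 222 values in all. Of these 210 kept their direction, 12 turned it, and 0 passed limma's adjusted threshold. The brightness filter, the other fits and the other uses of clusters left the fold changes of these genes as they were. Leaving out an array changed only the comparisons with its diet. The 210 therefore include values that could not have turned, and the count is no measure of how firm the directions are. Slc6a8 kept its direction throughout, between 0.54 and 0.75 for leucine against casein, 0.33 and 0.49 for dairy against casein, and 0.17 and 0.26 for leucine against dairy. Its lowest values against casein came with quantile normalization and its highest with centring on array medians, which shifts leucine against casein by 0.10 for every gene. Quantile normalization gave −0.014 for Gamt with dairy against casein and 0.073 for Ckb with leucine against dairy. Centring gave 0.075 for Gamt with leucine against casein and 0.058 for Ckb with leucine against dairy. With single arrays left out, leucine against dairy ran from −0.19 to 0.17 for Ckb (0.03 without leucine array 1), −0.21 to 0.0046 for Gamt and −0.26 to 0.082 for Gatm. Dairy against casein then ran from −0.32 to 0.023 for Gatm and −0.13 to 0.28 for Gamt (−0.03 without dairy array 1), and leucine against casein from −0.23 to 0.18 for Gamt.

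The median over the 5 genes for leucine against casein was −0.070 with quantile normalization, −0.10 with centring and −0.23 to −0.11 with single arrays left out. For dairy against casein it was −0.014 with quantile normalization and −0.057 to 0.19 with single arrays left out, and for leucine against dairy −0.19 to 0.0046. Genes called over the whole table numbered 0 to 1 with single arrays left out in both comparisons with casein. The 1 gene was Il6 both times, without casein array 1, with a log2 signal of 6.97 on casein array 2 and at most 2.40 elsewhere. Without Gatm, which the brightness filter removed, no median over the 5 genes could be formed. Differences between arrays 1 and 2 correlated at 0.179 between leucine and casein. The values were 0.0865 between dairy and casein and 0.0536 between leucine and dairy. These correlations cannot show whether the replicate numbers pair the arrays. With the replicate number as a block Slc6a8 had adjusted p of 0.402, 0.783 and 0.770 in the 3 comparisons and the block changed no call, with 0 genes called. The medians of marker lists without casein array 2 were added after the data were seen.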
